A study of Homo sapiens with 112 samples.

Results

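Aminoacyl-tRNA synthetases are the enzymes that load each transfer RNA with its amino acid. The 36 genes described here were selected by their symbols, and the family was chosen with earlier results of these data known. Of them, 20 were grouped as cytosolic enzymes or their subunits and 16, whose symbols end in 2, as mitochondrial enzymes. The grouping rests on the symbols alone, so a gene that serves both compartments counts as cytosolic here. They are 36 of the 58684 genes listed in the count table, which uses older symbols for the cytosolic genes (AARS, now AARS1, and so on). All 36 had enough reads to be tested in both cell lines, with 21 reads (SARS2) to 13799 reads (EPRS) per library.

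VCaP and LAPC4 are androgen-responsive cell lines from human prostate cancer. RNA sequencing measured how darolutamide, an antiandrogen drug, changes the response to the synthetic androgen R1881. All groups shared 2 days of culture in 10% charcoal-stripped serum, which holds little hormone, before treatment. Treatment lasted 8 or 22 h and was DMSO as vehicle, R1881 at 1 nM, or the same R1881 together with darolutamide at 500 nM, called low here, or at 2 µM, called high. No group received darolutamide without R1881. Each cell type is represented by 1 established line grown in culture, and the libraries of a group are separate samples of that line. The VCaP groups of DMSO, R1881, low and high darolutamide held 10, 10, 4 and 5 libraries at 8 h and 8, 9, 4 and 5 libraries at 22 h. The LAPC4 groups held 10, 10, 5 and 5 libraries at 8 h and 7, 10, 5 and 5 libraries at 22 h.

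Most cytosolic synthetases serve the ribosomes of the cytosol, and several of them, with the scaffold proteins AIMP1, AIMP2 and EEF1E1, form the multi-synthetase complex. Mitochondrial synthetases are also encoded in the nucleus and are imported into the organelle, where they serve the mitochondrial ribosomes. When amino acids are short or the endoplasmic reticulum is stressed, the transcription factor ATF4 is known to raise many cytosolic synthetase genes through short elements of the form TGATGNAA.

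The promoter sequences are shown first, because members of the family changed in different directions. Promoters of 250 bases before to 50 bases after the start, from RefSeq on GRCh38.p14, were found for 30 of the 36 genes. For each member only 1 window was used, the first by chromosome position, while the share over all promoters counts every window. This window need not lie at the main start. For CARS, on the minus strand, it was chr11:3040935-3041234, while the annotated gene reaches to 3057613. A missing match therefore covers the window used only. The letters TGATGNAA, on either strand, occurred in the promoters of 4 of 16 cytosolic genes (25%) and of 1 of 14 mitochondrial genes (7.14%), against 3.62% of all 35116 promoters of this length. The match and 11 bases on each side are given for these genes on the strand of the gene, with the match in capitals.
AARS, chr16:70289675-70289704: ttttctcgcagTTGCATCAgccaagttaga
IARS, chr9:92293692-92293721: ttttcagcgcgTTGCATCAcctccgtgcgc
MARS, chr12:57488053-57488082: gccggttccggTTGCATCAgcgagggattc
NARS, chr18:57621804-57621833: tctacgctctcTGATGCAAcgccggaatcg
YARS2, chr12:32756076-32756105: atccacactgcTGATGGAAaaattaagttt
The matches began 187 bases before the start for AARS, 13 before it for IARS, 4 before it for MARS, 15 past it for NARS and 197 before it for YARS2. For MARS, which had the smallest adjusted p of the family at 22 h in VCaP cells, the promoter is printed from 250 bases before to 25 bases past the start.
MARS promoter, chr12:57487818-57488092: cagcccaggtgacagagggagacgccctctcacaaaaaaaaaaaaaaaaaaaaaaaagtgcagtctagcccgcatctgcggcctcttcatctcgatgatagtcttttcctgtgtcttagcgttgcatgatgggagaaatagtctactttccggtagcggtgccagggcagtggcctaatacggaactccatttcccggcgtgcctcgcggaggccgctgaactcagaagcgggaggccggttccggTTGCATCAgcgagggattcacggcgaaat
The E-box CACGTG occurred at IARS, EARS2 and MARS2, which is 1 of 16 cytosolic and 2 of 14 mitochondrial promoters, against 7.26% of all promoters. HARS and its mitochondrial counterpart HARS2 start head to head on chromosome 5, and the bases between the starts are printed because the 2 genes are compared further on.
HARS and HARS2, chr5:140691371-140691454: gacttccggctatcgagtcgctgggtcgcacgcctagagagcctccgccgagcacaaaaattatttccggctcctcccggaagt
A match is a string of letters in the window and was not tested as a binding site.

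The libraries held 12188455 to 25201678 counted reads, and 19266 genes in VCaP and 18204 in LAPC4 cells were tested. Values are given in CPM, read counts scaled to an equal effective library total. The effective total is the library total multiplied by its TMM scaling factor from edgeR. Changes are given as log2 fold changes with their standard error (SE). A gene was called, or is said to have risen or fallen, at an adjusted p under 0.05 in the quasi-likelihood test of edgeR, adjusted by Benjamini and Hochberg's method over all genes tested. ERG, which VCaP cells express from a gene fusion, was at 117 to 1066 CPM in VCaP and at most at 0.0539 CPM in LAPC4 libraries. The summed markers of fibroblasts, endothelium and leukocytes reached at most 30.7, 3.46 and 0.678 CPM in any library, and their part in the results was not tested. Within the fibroblast sum LUM reached 29.1 CPM, while COL1A1, COL1A2 and DCN reached at most 1.75, 0.130 and 0.563 CPM. In bulk RNA, fewer cells of a type and less RNA per cell cannot be told apart.

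Before the treatments are compared, the levels in vehicle-treated cells at 22 h are given per kilobase of transcript (RPKM), since only these can be set against each other between genes. In VCaP cells the cytosolic genes had a median of 26.3 RPKM, from 5.23 for CARS to 89.7 for QARS. The mitochondrial genes had a median of 8.99 RPKM, from 0.851 for SARS2 to 75.8 for CARS2. QARS, the glutaminyl enzyme, at 89.7 ± 6.07 (SD, n = 8), CARS2, the mitochondrial cysteinyl enzyme, at 75.8 ± 6.42, and NARS, the asparaginyl enzyme, at 71.4 ± 3.97 led the order, and the ranges of neighbours among these 3 overlapped. IARS2, SARS, KARS and EPRS followed at 55.0, 52.6, 49.8 and 49.4 RPKM, also with overlapping ranges between neighbours. In LAPC4 cells the cytosolic median was 45.8 RPKM and the mitochondrial median 8.03 RPKM. There NARS, EPRS, QARS and TARS led with 96.2, 94.9, 94.1 and 93.0 RPKM (n = 7), and neighbours in this order overlapped. SARS2 was last in both lines, at 0.851 ± 0.248 RPKM in VCaP and 1.08 ± 0.107 in LAPC4 cells.

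The vehicle-treated lines differed most at the mitochondrial cysteinyl enzyme. CARS2 was at 121 to 152 CPM in VCaP and at 10.6 to 12.3 CPM in LAPC4 libraries at 22 h, a log2 difference of 3.83 ± 0.0768 (SE; edgeR adjusted p = 3.69e-72). In the same comparison NARS2, the mitochondrial asparaginyl enzyme, differed by 1.89 ± 0.0509 and AARS2, the mitochondrial alanyl enzyme, by 1.42 ± 0.0967, both higher in VCaP cells. Of the 20 cytosolic genes, 13 were lower and 3 (DARS, FARSB and QARS) higher in VCaP, with a median log2 difference of -0.37, and of the 16 mitochondrial genes 8 were lower and 7 higher, with a median of -0.14. Of all 20892 genes tested over both lines, 44.6% were called lower and 42.5% higher. CARS, AARS and TARS had the most negative cytosolic differences, at -1.54, -1.20 and -1.18, and FARS2 the most negative mitochondrial one, at -1.62. CPM and RPKM were scaled within each line and these log2 differences come from a fit scaled over both lines, so that ratios of the CPM lie -0.22 from the fitted values in the median of the 36 genes. QARS, at 0.15 in the fit, was at -0.07 by the ratio of mean CPM, and it was the 1 gene whose sign differed. SARS, the seryl enzyme, was among the lower ones at -0.08, and at 0.02 and not called with DESeq2, whose scaling moved the median of all genes in this comparison from -0.05 to 0.06. What sets these levels was not tested.

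Does androgen change the family in VCaP cells? At 22 h most cytosolic synthetases rose with R1881, while the mitochondrial ones split. Of the 20 cytosolic genes, 13 were higher and 5 lower than with DMSO, and the median log2 fold change was 0.38. Of the 16 mitochondrial genes, 8 were higher and 6 lower, with a median of 0.11. R1881 moved most of the transcriptome in these cells, and 37.4% of all genes tested were called higher and 40.0% lower, with a median of -0.03. The cytosolic share called higher was 13 of 20, and the mitochondrial shares lie near those of all genes.

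MARS, the methionyl enzyme, had the smallest adjusted p. Its libraries ranged from 68.7 to 79.2 CPM with DMSO (median 73.0, n = 8) and from 162 to 174 CPM with R1881 (median 169, n = 9), so that every R1881 library lay above every DMSO library. The log2 fold change was 1.20 ± 0.031 (SE; edgeR adjusted p = 5.18e-39). MARS exons overlap those of genes on the other strand, DDIT3 and ARHGAP9, over 12.4% of their length, and the strand setting of the counting is not given in the sources used here. DDIT3 itself rose by 0.59 ± 0.0544 at 22 h. Exons of other members overlap those of genes on the other strand too, over 18.1% for YARS2 and 10.6% for WARS. The overlap is 8.5% for HARS, with WDR55 and HARS2, and 2.9% for HARS2, with HARS.

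TARS, the threonyl enzyme, ranged from 90.4 to 103 CPM (median 94.5) with DMSO and from 156 to 174 CPM (median 163) with R1881. AARS, the alanyl enzyme, ranged from 86.0 to 98.3 CPM (median 87.9) and from 134 to 148 CPM (median 139). Neither gene's groups overlapped, and the log2 fold changes were 0.79 ± 0.0331 for TARS and 0.63 ± 0.0303 for AARS. CARS, the cysteinyl enzyme, was the least abundant cytosolic member per kilobase and rose by 0.97 ± 0.0514, from a median of 14.04 to 28.1 CPM. WARS, YARS, GARS, NARS and HARS, the tryptophanyl, tyrosyl, glycyl, asparaginyl and histidyl enzymes, rose by 0.35 to 0.57. FARSA, VARS, SARS and RARS also passed the test, at 0.51, 0.40, 0.22 and 0.11, although RARS lost its call with either part of the control libraries (replicates 1 to 5, or 6 and above). FARSA varied widely between libraries, from 24.0 to 49.3 CPM with DMSO and from 32.6 to 68.2 CPM with R1881, and its change was 0.29 when the dependence of each library on base composition was fitted and 0.33, with the call lost, with control replicates 1 to 5.

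The cytosolic genes that fell were FARSB, QARS, LARS, DARS and EPRS. FARSB encodes the beta subunit of the phenylalanyl enzyme, whose alpha subunit is FARSA. Its libraries ranged from 74.2 to 88.0 CPM (median 76.9) with DMSO and from 49.2 to 55.3 CPM (median 53.2) with R1881, without overlap, and it changed by -0.57 ± 0.0406 (edgeR adjusted p = 1.04e-18). The 2 subunits of this enzyme therefore changed in opposite directions. QARS changed by -0.57 ± 0.0367, LARS, the leucyl enzyme, by -0.26 ± 0.0425, and EPRS, which carries both the glutamyl and the prolyl activity, by -0.13 ± 0.0385. DARS, the aspartyl enzyme, ranged from 73.1 to 89.3 CPM with DMSO and from 62.5 to 75.8 CPM with R1881, with overlap, and changed by -0.18 ± 0.0472 (edgeR adjusted p = 4.52e-04). IARS, the isoleucyl enzyme, and KARS, the lysyl enzyme, were not called, at 0.07 ± 0.0381 and -0.04 ± 0.0346.

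Members and non-members of the multi-synthetase complex are set side by side here, a grouping chosen after the values were seen and not tested. Of the 8 enzymes of the complex (EPRS, IARS, LARS, MARS, QARS, RARS, KARS and DARS), 2 rose and 4 fell at 22 h, with a median of -0.08. Of the other 12 cytosolic genes, 11 rose and 1, FARSB, fell, with a median of 0.45. MARS was thus the 1 complex enzyme with a change above that median. Among the scaffold proteins at 8 h, AIMP2 changed by -0.85 ± 0.0565 with R1881 and AIMP1 by -0.21 ± 0.0405. EEF1E1 was not called then, at -0.23 ± 0.110. At 22 h EEF1E1 rose by 0.56 ± 0.115, while AIMP1 and AIMP2 were not called, at -0.01 ± 0.0439 and 0.05 ± 0.0604.

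Among the mitochondrial genes VARS2, the valyl enzyme, had the smallest adjusted p. It ranged from 24.4 to 35.5 CPM (median 32.5) with DMSO and from 12.2 to 15.6 CPM (median 13.7) with R1881, without overlap. The change was -1.16 ± 0.0655 (edgeR adjusted p = 3.99e-23), the most negative of the 36. Another annotated gene holds 97.31% of the 50-base stretches of the VARS2 transcript, so its count rests on how the counting treated shared sequence, which is not given in the sources used here. HARS2 ranged from 32.9 to 36.7 CPM (median 34.5) and from 45.1 to 54.0 CPM (median 46.9), and rose by 0.45 ± 0.0376 (edgeR adjusted p = 3.33e-16). Its head-to-head neighbour HARS rose by 0.35 ± 0.0327. IARS2, the isoleucyl enzyme, ranged from 186 to 208 CPM (median 192) and from 141 to 165 CPM (median 153), and changed by -0.36 ± 0.0388 (edgeR adjusted p = 3.82e-12). Neither the HARS2 nor the IARS2 groups overlapped.

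Of the other mitochondrial genes YARS2, SARS2, RARS2, MARS2, CARS2, LARS2 and WARS2 rose by 0.16 to 0.36, and PARS2, NARS2, EARS2 and TARS2 changed by -0.47 to -0.20. AARS2 and FARS2 were not called, at 0.05 ± 0.0837 and 0.04 ± 0.089. SARS2 is the weakest of these, because it had a median of 1.52 CPM with DMSO and 1.97 CPM with R1881 and shares 77.01% of its 50-base stretches with another annotated gene.

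**Figure D1:**
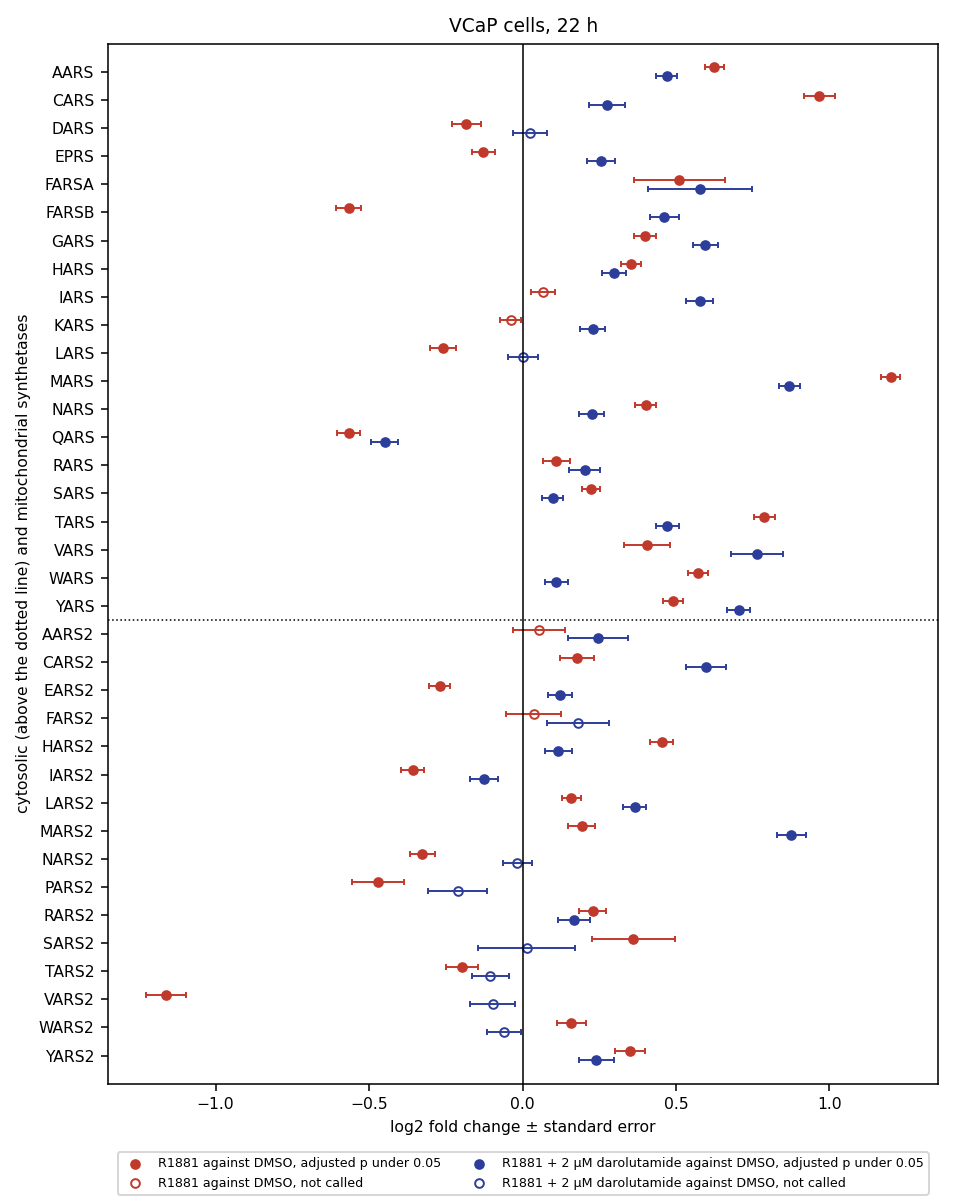
Log2 fold change against DMSO (horizontal axis, bars show ± SE) of the 36 synthetase genes (vertical axis) in VCaP cells at 22 h, in red for R1881 alone and in blue for R1881 plus 2 µM darolutamide, with filled points for an adjusted p under 0.05. FARSB lies on opposite sides of 0 under the 2 treatments, at -0.57 and 0.46, while QARS lies below 0 and MARS well above it in both.

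The response at 8 h was of another shape. Of the 20 cytosolic genes 10 were higher and 7 lower with R1881 than with DMSO (median 0.07), and of the 16 mitochondrial genes 3 were higher and 9 lower (median -0.25), where 32.8% of all genes were called higher and 34.1% lower (median -0.03). TARS had the highest value at this time, 0.99 ± 0.0303, followed by CARS at 0.82 ± 0.0454, MARS at 0.73 ± 0.0278, GARS at 0.56 ± 0.0314 and AARS at 0.47 ± 0.0275. VARS2, VARS, NARS2, PARS2, EARS2 and FARSB had the most negative values, from -0.75 ± 0.0586 to -0.47 ± 0.0372. HARS2, RARS2 and YARS2 were the mitochondrial genes that rose, by 0.11, 0.14 and 0.42.

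The R1881 effect at 22 h differed from that at 8 h, in a test of the difference itself, for 13 cytosolic genes (9 more positive and 4 more negative at 22 h) and for 9 mitochondrial genes (8 and 1). For all genes tested, 28.1% were more positive and 32.3% more negative. VARS, the cytosolic valyl enzyme, ranged from 46.4 to 69.0 CPM (median 61.3) with DMSO and from 32.5 to 44.3 CPM (median 36.4) with R1881 at 8 h, without overlap. At 22 h it ranged from 38.3 to 55.9 CPM (median 50.6) and from 52.6 to 76.8 CPM (median 65.6), with overlap. VARS therefore fell by 0.64 on the log2 scale at 8 h and rose by 0.40 at 22 h, and the difference between the 2 effects was 1.04 ± 0.102 (edgeR adjusted p = 3.56e-13).

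In all, 5 genes were called lower at 8 h and higher at 22 h, namely VARS, WARS, CARS2, LARS2 and SARS2, and none was called higher at 8 h and lower at 22 h. The call at 22 h was lost for CARS2 and SARS2 with control replicates 1 to 5 and for LARS2 with those from 6 on. WARS went from -0.08 ± 0.0297 to 0.57 ± 0.0323, and LARS2, the mitochondrial leucyl enzyme, from -0.41 ± 0.0292 to 0.16 ± 0.0317. Of the other genes, 13 rose and 10 fell at both times. How often all genes showed each pair of calls was not counted, so these numbers have no share beside them. Singly, 32.8% of all genes were called higher and 34.1% lower at 8 h, and 37.4% and 40.0% at 22 h. The vehicle libraries moved with time too: 12 of 20 cytosolic genes were lower and 2 (KARS and LARS) higher at 22 h than at 8 h with DMSO, against 13.9% of all genes lower and 15.9% higher. MARS, CARS and GARS changed most there, by -0.57 ± 0.0302, -0.47 ± 0.0507 and -0.44 ± 0.034. Of the mitochondrial genes 5 were lower and 2 (CARS2 and NARS2) higher. With control replicates from 6 on, 8 cytosolic and 4 mitochondrial genes were called. For MARS, whose R1881 effect was larger at 22 h by 0.47 ± 0.0413, the R1881 libraries were at 173 to 194 CPM at 8 h and 162 to 174 CPM at 22 h, and the DMSO libraries at 100.2 to 119 and 68.7 to 79.2 CPM.

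The question for darolutamide is how far it takes the androgen response back. In VCaP cells at 8 h, the high dose lowered most of the genes that R1881 had raised, with NARS, HARS2 and RARS2 not called, at -0.07 ± 0.0384, -0.05 ± 0.0421 and -0.05 ± 0.0498. TARS was at 85.0 to 98.1 CPM with DMSO (median 95.5) and at 171 to 201 CPM with R1881 (median 188). The low-dose libraries held 136, 138, 128 and 136 CPM and the high-dose libraries 110.3, 116, 105, 114 and 118 CPM. The 4 groups were thus ordered without overlap, and the high dose differed from R1881 by -0.73 ± 0.0378 and from the low dose by -0.26 ± 0.045. Of the cytosolic genes, 9 were lower and 5 higher with the high dose than with R1881, and of the mitochondrial genes 1, YARS2, was lower and 8 higher, against 26.2% of all genes lower and 25.9% higher. R1881 libraries serve both this comparison and the one with DMSO, so the values of the 2 comparisons are given side by side and not correlated.

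At 22 h the picture in VCaP cells was different, since 10 cytosolic genes were higher and 7 lower with the high dose than with R1881, with a median of 0.10, and 8 mitochondrial genes were higher and 3 lower, with a median of 0.20. Of all genes 36.1% were called higher and 30.8% lower, with a median of 0.06. MARS was at 139, 129.7, 126, 146 and 131 CPM in the high-dose libraries. These lie below every R1881 library and above every DMSO library. MARS changed by -0.33 ± 0.0347 against R1881 (edgeR adjusted p = 2.26e-12) and remained 0.87 ± 0.0352 above DMSO. TARS was at 129, 132, 119, 137 and 139.6 CPM, also between the other groups, at -0.32 ± 0.0377 against R1881 and 0.47 ± 0.0381 against DMSO. AARS was at 136, 119.9, 116, 135 and 120.4 CPM, above every DMSO library but overlapping with R1881 (134 to 148 CPM). CARS came nearer to the vehicle level, with 17.6, 17.7, 15.7, 19.9 and 15.8 CPM against 12.2 to 16.5 CPM with DMSO and 26.3 to 31.1 CPM with R1881, and WARS did so at 61.2 to 71.4 CPM against 57.4 to 67.6 CPM with DMSO.

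Other members were higher with the high dose than with either control. FARSB was at 104, 109, 94.3, 113 and 119 CPM in the high-dose and 90.2, 92.2, 89.6 and 86.1 CPM in the low-dose libraries. The high-dose libraries all lay above those of R1881, where FARSB had fallen, and above those of DMSO, where its highest library was at 88.0 CPM. The change was 1.03 ± 0.0449 against R1881 (edgeR adjusted p = 9.77e-28) and 0.46 ± 0.046 against DMSO, and the high dose exceeded the low dose by 0.27 ± 0.0547.

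IARS was at 205 to 233 CPM with the high dose (median 218), 195 to 205 CPM with the low dose, 144 to 169 CPM with R1881 and 135 to 161 CPM with DMSO. It was not called for R1881 at 22 h, yet differed by 0.51 ± 0.0427 between the high dose and R1881. YARS was at 101, 97.6, 91.99, 112 and 96.9 CPM with the high dose, above the 81.1 to 89.7 CPM with R1881 and the 58.1 to 63.9 CPM with DMSO. It rose with R1881 and was a further 0.22 ± 0.036 higher with the high dose, so that it stood 0.70 ± 0.0368 above DMSO. VARS was at 73.8 to 95.02 CPM with the high dose, 0.36 ± 0.0829 above R1881 and 0.76 ± 0.0851 above DMSO.

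The mitochondrial gene furthest from both controls was MARS2, the methionyl enzyme. It held 11.4 to 14.3 CPM with DMSO (median 12.9), 13.9 to 15.3 CPM with R1881 (median 14.6), 22.0, 21.3, 23.1 and 23.2 CPM with the low dose and 23.4, 24.0, 22.2, 25.9 and 21.5 CPM with the high dose. The darolutamide libraries lay above all control libraries, and the 2 doses overlapped. MARS2 was 0.68 ± 0.047 higher with the high dose than with R1881 and 0.88 ± 0.0484 higher than with DMSO. At 8 h its difference between the high dose and R1881 was 0.19 ± 0.0471. CARS2 was at 190 to 242 CPM with the high dose, 133 to 178 CPM with R1881 and 121 to 152 CPM with DMSO, and stood 0.60 ± 0.0641 above DMSO.

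VARS2 showed the other pattern, a fall with R1881 and a return with darolutamide. It was at 25.2, 19.9, 23.3 and 22.1 CPM with the low dose and at 31.7, 26.2, 30.1, 30.2 and 26.2 CPM with the high dose, all above the 12.2 to 15.6 CPM with R1881. The high dose differed from R1881 by 1.06 ± 0.0728 (edgeR adjusted p = 2.83e-19), and its libraries overlapped those of DMSO. Its difference from DMSO was -0.10 ± 0.0731 and was not called, with a 95% interval of -0.24 to 0.05. NARS2, PARS2, TARS2, SARS2, WARS2 and FARS2 were not called against DMSO either. HARS2 moved the other way, at 36.6, 37.3, 37.9, 39.6 and 37.6 CPM with the high dose, below every R1881 library, and stood 0.12 ± 0.0438 above DMSO.

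**Figure D2:**
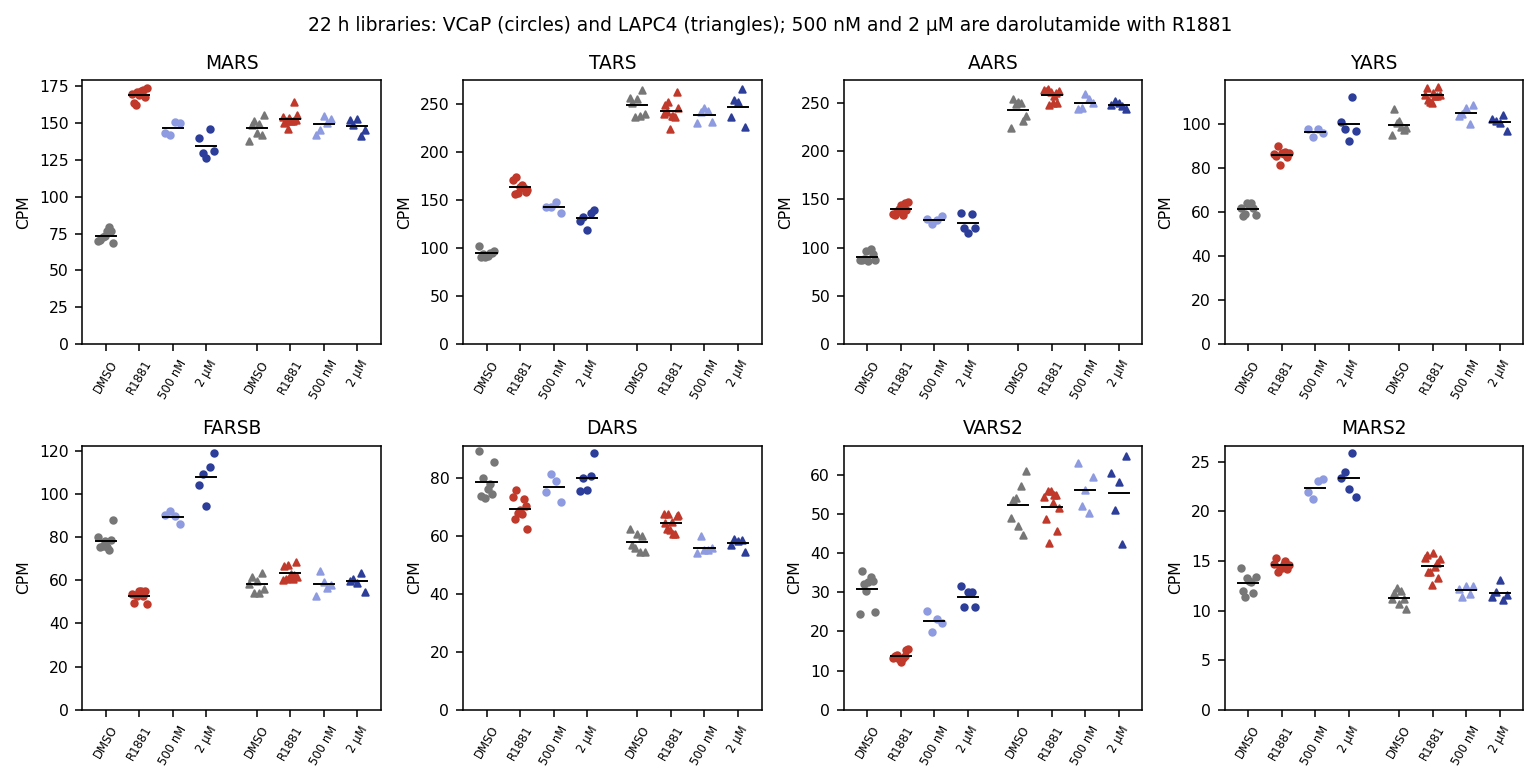
CPM (vertical axes, from 0) of 8 synthetase genes in each library at 22 h, with circles for VCaP and triangles for LAPC4, grouped along the horizontal axis by treatment, and horizontal bars at the group means. In VCaP cells the MARS and TARS libraries with darolutamide lie between DMSO and R1881, those of FARSB and MARS2 lie above or at the top of both controls, and in LAPC4 cells the groups of MARS, TARS and VARS2 overlap.

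Set against DMSO at 22 h, VCaP cells with R1881 plus the high dose had 17 of 20 cytosolic genes higher and 1, QARS, lower, with a median of 0.29. DARS and LARS were not called, at 0.02 ± 0.0548 and 0.00 ± 0.0494. Of the 16 mitochondrial genes 8 were higher and 1, IARS2, lower, with a median of 0.12. Among all genes 30.5% were called higher and 28.5% lower, with a median of 0.01. QARS was at 148 to 177 CPM with the high dose against 197 to 241 CPM with DMSO, without overlap, a change of -0.45 ± 0.0434. SARS, WARS, HARS2, RARS2, AARS2 and EARS2 were higher by 0.10 to 0.25 and each lost its call under 2 or more of the alternatives described in the closing section.

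The low dose gave 9 higher and 7 lower cytosolic genes and 6 higher and 2 lower mitochondrial genes against R1881 at 22 h, where 26.7% of all genes were higher and 26.4% lower. At 8 h it gave 2 higher (FARSB and LARS) and 8 lower cytosolic and 4 higher mitochondrial genes (IARS2, LARS2, NARS2 and PARS2), against 14.9% higher and 15.7% lower. The mitochondrial count was 2 without low-dose replicate 2 and 1 with no low-count filter, and FARSB and LARS lost their calls without low-dose replicate 1. Directly compared at 22 h, EPRS, FARSB, IARS, EARS2, IARS2 and VARS2 were higher with 2 µM than with 500 nM, by 0.15 to 0.35, and CARS and MARS were lower, by -0.22 ± 0.0695 and -0.12 ± 0.0413, against 10.4% of all genes higher and 9.75% lower. FARSB and VARS2 were the genes whose calls held in every alternative here: the cytosolic count was 2 without high-dose replicate 5, 3 without high-dose replicate 3 or low-dose replicate 4 and 1 with no low-count filter, and the mitochondrial count was 5 without high-dose replicate 3. At 8 h FARSB, VARS, EARS2, LARS2, NARS2 and VARS2 were higher, by 0.17 to 0.33, and MARS and TARS lower, against 7.53% higher and 10.0% lower. VARS lost its call there when any 1 of 8 of the 9 darolutamide libraries was left out. For YARS and MARS2 at 22 h the differences between doses were 0.05 ± 0.0434 and 0.06 ± 0.0562 and were not called.

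**Figure D3:**
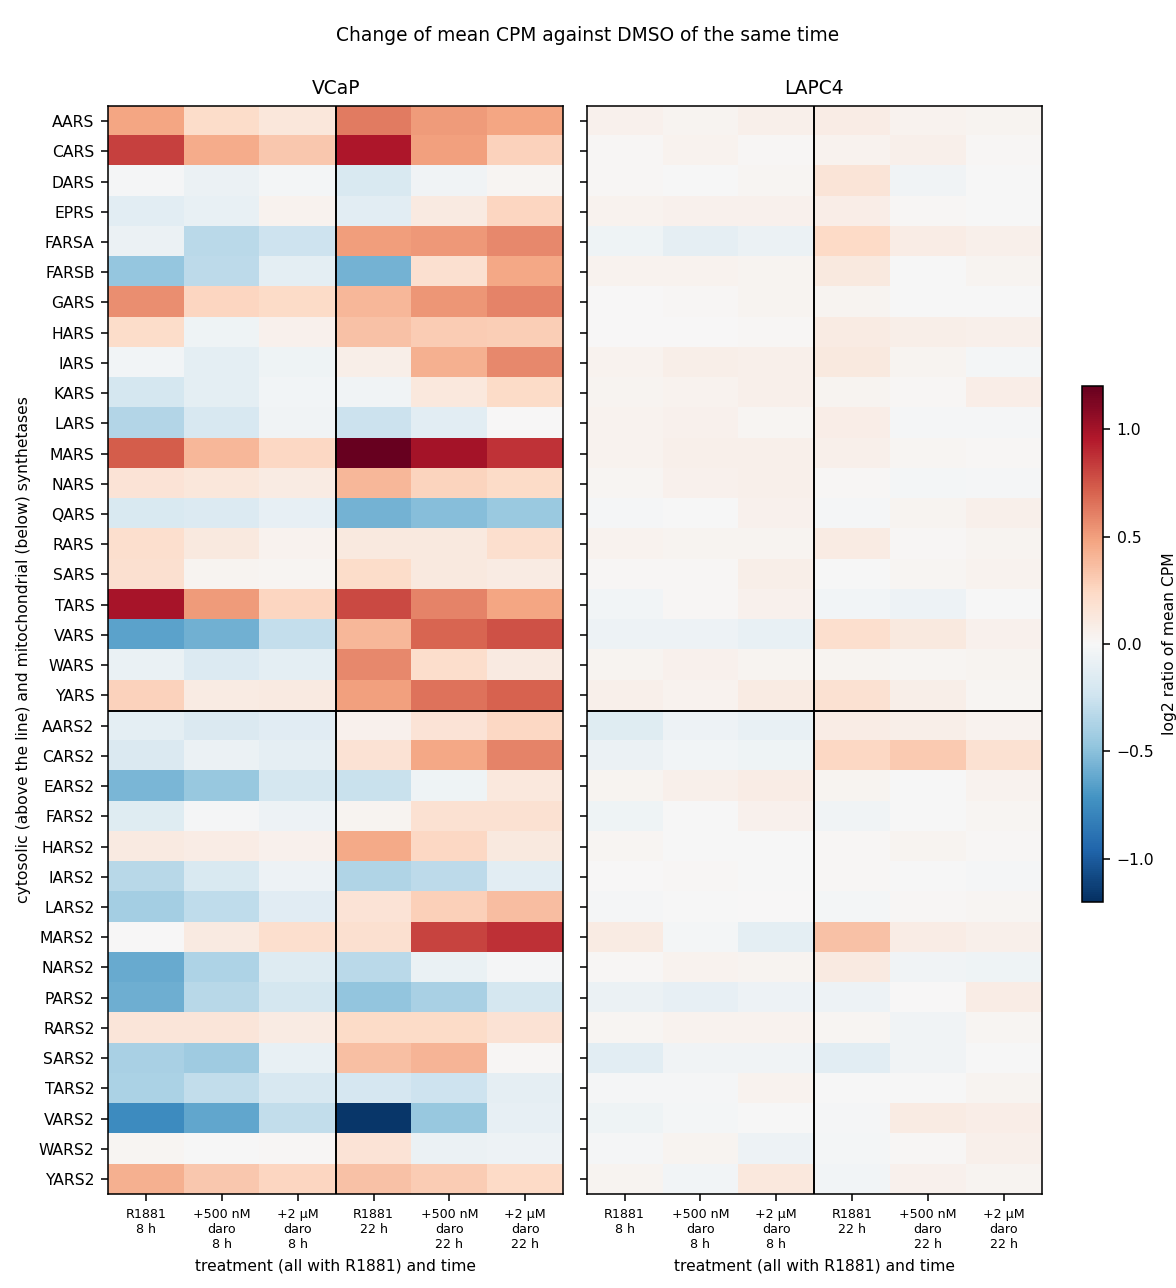
Log2 ratio of mean CPM against DMSO of the same time (colour, red higher and blue lower) for the 36 genes (rows) in each treatment and time (columns), for VCaP on the left and LAPC4 on the right. The VCaP columns hold both colours, with MARS the deepest red (log2 fold change 1.20 in the fit) and VARS2 the deepest blue (-1.16) with R1881 at 22 h, while the LAPC4 columns are pale throughout.

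The mean log2 CPM over each set sums up these shifts without a test. In VCaP cells the cytosolic mean was 6.31 ± 0.0209 (SD, n = 8) with DMSO, 6.57 ± 0.0196 (n = 9) with R1881, 6.62 ± 0.0118 (n = 4) with the low dose and 6.64 ± 0.0513 (n = 5) with the high dose at 22 h. At 8 h the same means were 6.46, 6.58, 6.46 and 6.48. The cytosolic set thus stood with the vehicle in both darolutamide groups at 8 h and with R1881 or above it at 22 h. The mitochondrial mean was 4.70, 4.66, 4.79 and 4.84 at 22 h and 4.78, 4.55, 4.62 and 4.72 at 8 h in the same order of groups. With R1881 at 22 h the mitochondrial mean thus stood at -0.04 from DMSO while the median fold change was 0.11, and without SARS2 and VARS2 the mean stood at 0.01. With the high dose it stood 0.15 above DMSO, and the median over the members in each library gave -0.039. The cytosolic mean exceeded the mitochondrial mean by 1.61 with DMSO, 1.91 with R1881, 1.82 with the low and 1.80 with the high dose at 22 h.

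**Figure D4:**
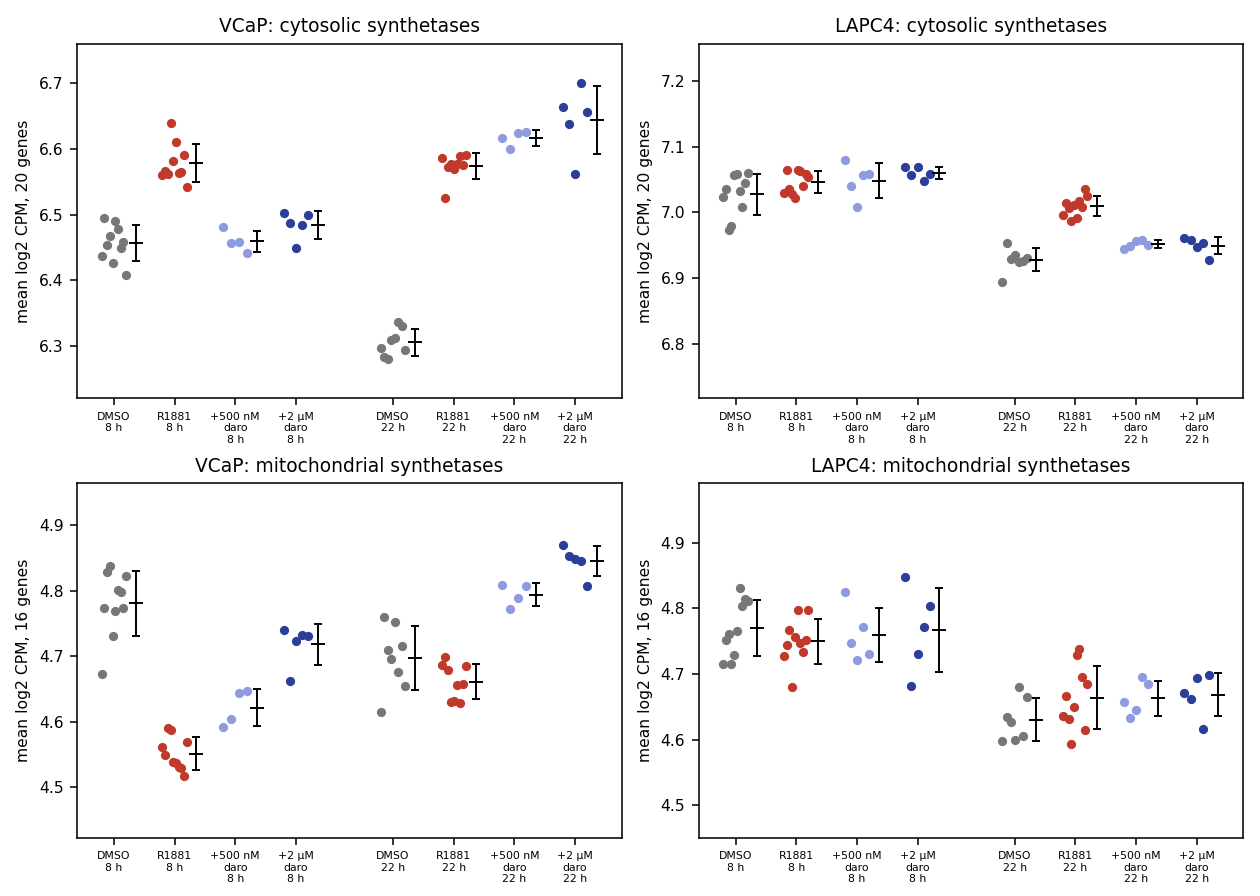
Mean log2 CPM (vertical axes) over the 20 cytosolic genes (top) and the 16 mitochondrial genes (bottom) in each library, for VCaP (left) and LAPC4 (right), by treatment and time, with the group mean ± SD beside the points. VCaP libraries at 22 h rise from about 6.31 with DMSO to 6.57 with R1881 and stay there or higher with darolutamide, and the LAPC4 cytosolic means at that time lie between 6.93 and 7.01.

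In LAPC4 cells the family moved little. With R1881 at 22 h, 6 cytosolic genes (AARS, DARS, FARSB, HARS, IARS and YARS) and 2 mitochondrial genes (CARS2 and MARS2) rose and none fell, where 6.83% of all genes were called higher and 6.45% lower. These counts were 2 and 1 (YARS and MARS2 among them) with no low-count filter or with either part of the control libraries, and 13 and 4 with a covariate for base composition. The medians were 0.08 for the cytosolic and 0.00 for the mitochondrial genes, against 0.01 for all genes. At 8 h none of the 36 was called, against 1.75% of all genes higher and 0.895% lower, and DESeq2 called none either. At an unadjusted p under 0.05 in edgeR's test, 2 (YARS and MARS2) would have passed.

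MARS2 had the smallest adjusted p in LAPC4 cells. It was at 10.1 to 12.3 CPM (median 11.2, n = 7) with DMSO and 12.5 to 15.8 CPM (median 14.6, n = 10) with R1881, without overlap, and rose by 0.36 ± 0.0477 (edgeR adjusted p = 3.46e-08). YARS was at 94.7 to 107 CPM (median 98.4) and 109 to 117 CPM (median 113), also without overlap, and rose by 0.18 ± 0.0253 (edgeR adjusted p = 9.28e-08). The other named groups overlapped: DARS was at 54.4 to 62.3 CPM and 60.7 to 67.6 CPM and rose by 0.16 ± 0.0336, and AARS was at 224 to 253 CPM and 248 to 264 CPM and rose by 0.09 ± 0.0282. CARS2 rose by 0.25 ± 0.0829, from a range of 10.6 to 12.3 CPM to one of 11.9 to 16.1 CPM. NARS2 was at 18.5 to 20.6 CPM and 17.8 to 23.8 CPM and was not called, at 0.10 ± 0.0505 (edgeR adjusted p = 0.200).

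Darolutamide lowered 4 of these. Against R1881 at 22 h, the high dose changed DARS by -0.17 ± 0.0375, IARS by -0.14 ± 0.0437, YARS by -0.16 ± 0.0282 and MARS2 by -0.29 ± 0.0532, and no member was higher, where 5.0% of all genes were called higher and 5.47% lower. YARS was at 102, 101, 100.4, 104 and 96.6 CPM, below all R1881 libraries, and MARS2 was at 11.4, 11.9, 13.1, 11.03 and 11.6 CPM, with an overlap of the 13.1 CPM library. The low dose lowered DARS, YARS and MARS2, with changes of -0.20, -0.11 and -0.27, against 2.68% of all genes higher and 3.21% lower. The call of IARS was lost without high-dose replicate 1, 3 or 5 and that of YARS at the low dose without low-dose replicate 4, while the covariate for base composition gave 10 cytosolic genes for the high and 9 for the low dose. At 8 h MARS2 changed by -0.22 ± 0.0526 with the high dose and no other member was called, against 0.467% higher and 1.08% lower. This call was lost without high-dose replicate 2 or 4, with control replicates from 6 on and with no low-count filter. With the low dose at 8 h none of the 36 was called by edgeR or DESeq2, against 0.137% of all genes higher and 0.489% lower, and 1, MARS2, had an unadjusted p under 0.05 in edgeR's test. Between the doses none was called by either tool at 8 h, where 0.00549% of all genes were higher and 0.022% lower with 2 µM, or at 22 h, where 0.0439% were higher and 0.214% lower. At an unadjusted p under 0.05 in edgeR's test, 2 (SARS and YARS2) would have passed between the doses at 8 h and 0 at 22 h. Against DMSO at 22 h none was called with the high dose by edgeR or DESeq2, where 0.00549% of all genes were higher and 0.011% lower, and 1, KARS, had an unadjusted p under 0.05 in edgeR's test. The 95% interval of this difference was -0.05 to 0.07 for MARS and -0.05 to 0.17 for MARS2. MARS2, which in VCaP cells was higher with darolutamide than with R1881, was thus lower in LAPC4 cells.

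A test of the R1881 effect in VCaP against that in LAPC4 cells at 22 h found 15 cytosolic genes to differ, 10 more positive and 5 more negative in VCaP cells, and 12 mitochondrial genes, 6 and 6, where 30.2% of all genes were more positive and 28.4% more negative. MARS differed by 1.18 ± 0.0411, CARS by 0.97 ± 0.0582, TARS by 0.86 ± 0.0492 and VARS2 by -1.10 ± 0.102. DARS and FARSB were the members called in opposite directions, higher with R1881 in LAPC4 and lower in VCaP cells. FARSB was at 53.9 to 63.6 CPM with DMSO and 60.3 to 68.6 CPM with R1881 in LAPC4 cells, a change of 0.12 ± 0.0372 against -0.57 in VCaP cells, and the difference was -0.65 ± 0.0595 (edgeR adjusted p = 6.51e-18). For DARS the difference was -0.30 ± 0.0609 (edgeR adjusted p = 7.57e-06). IARS, KARS, FARSA, RARS, VARS, AARS2, CARS2, FARS2 and MARS2 were not called in this test. With control replicates from 6 on, 6 mitochondrial genes were called.

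**Figure D5:**
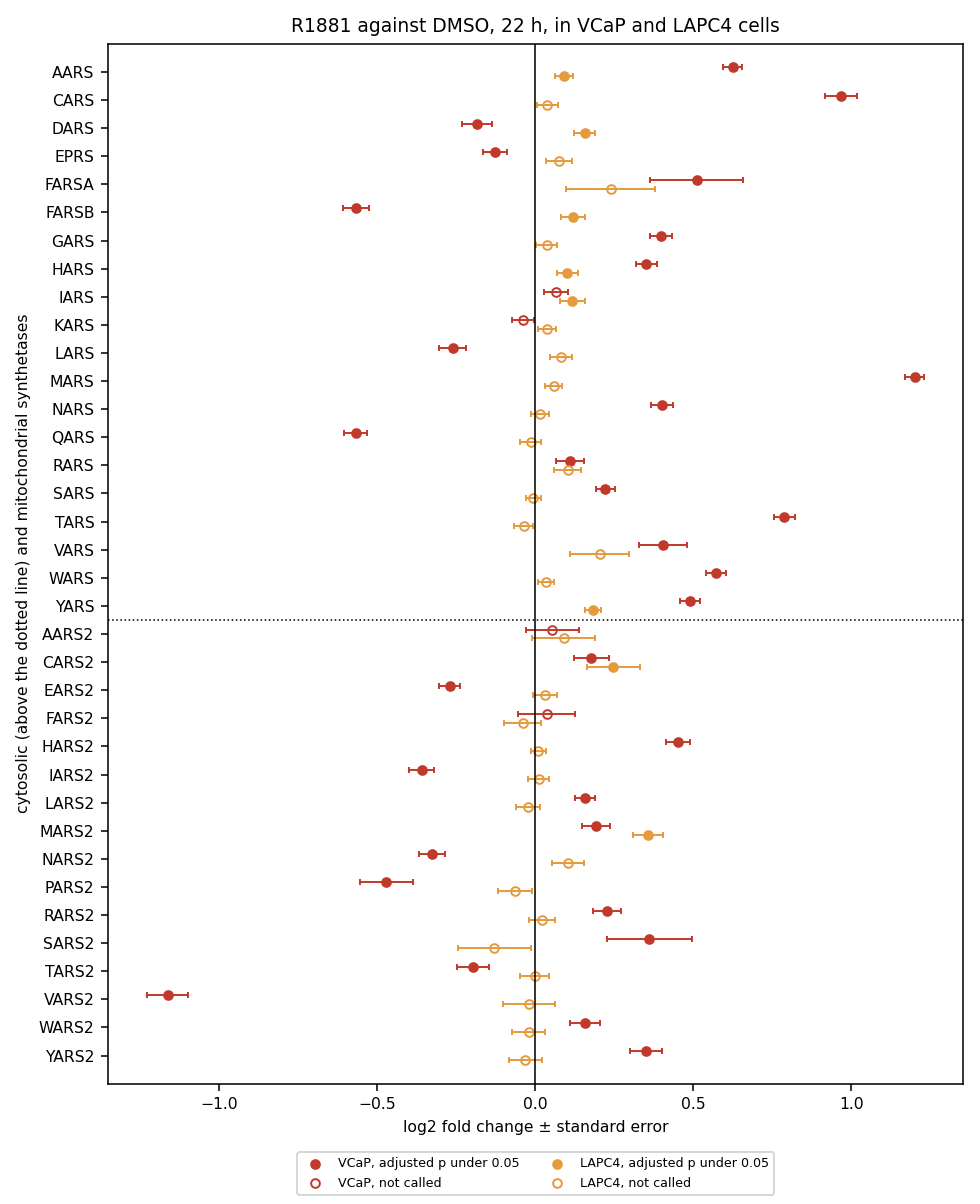
Log2 fold change with R1881 against DMSO at 22 h (horizontal axis, bars show ± SE) of the 36 genes (vertical axis), in red for VCaP and in orange for LAPC4, with filled points for an adjusted p under 0.05. VCaP values run from -1.16 (VARS2) to 1.20 (MARS) and LAPC4 values from -0.13 (SARS2) to 0.36 (MARS2).

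With DMSO in LAPC4 cells 8 cytosolic and 7 mitochondrial genes were lower at 22 h than at 8 h and none was higher, against 11.4% of all genes lower and 10.7% higher. The cytosolic count was 5 in a fit of only the compared groups and 13 with the covariate for base composition, and the mitochondrial count was 4 with control replicates 1 to 5 and 3 with those from 6 on. The R1881 effect differed between the times for YARS and MARS2, both more positive at 22 h, against 1.8% of all genes more positive and 1.41% more negative. Both calls were lost with only the compared groups, with control replicates 1 to 5 and with no low-count filter, and YARS also with control replicates from 6 on.

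The neighbouring genes of translation and of the amino acid response are given for comparison. Of 27 tested genes of the amino acid response in VCaP cells at 22 h, 16 were higher and 6 lower with R1881 (median 0.26), against 37.4% and 40.0% of all genes, and with the high dose 10 were higher and 12 lower than with R1881, against 36.1% and 30.8%. ATF5, a factor downstream of ATF4, changed by 2.16 ± 0.072 with R1881 and by -1.83 ± 0.0838 between the high dose and R1881. GPT2, an alanine aminotransferase, changed by 1.49 and -0.93, and TRIB3, an ATF4 target, by 1.10 and -0.54, in the same 2 comparisons. ATF4 itself changed by 0.26 and -0.26, and ASNS, asparagine synthetase, by 0.16 and 0.13. At 8 h ATF4 changed by 0.69 ± 0.0234 and -0.53 ± 0.0291, and DDIT3 by 1.13 ± 0.0508 and -0.66 ± 0.0618, in the same 2 comparisons. ASNS was not called in either at 8 h, at 0.01 ± 0.0402 and 0.01 ± 0.0492. With the high dose against DMSO at 22 h, GPT2 and TRIB3 were both at 0.56, ATF5 at 0.32 and ASNS at 0.28. ATF4 and DDIT3 were not called there, at 0.00 ± 0.0298 and -0.04 ± 0.064.

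Of the 20 cytosolic translation factors tested, 10 rose and 10 fell with R1881 (median -0.02; the shares of all genes are the 37.4% and 40.0% given above), led by EEF1B2 at -0.71, GSPT1 at 0.84 and EIF2S2 at 0.73. Of 13 mitochondrial translation factors 4 rose and 5 fell (median -0.04), led by MRRF at -0.66, GFM1 at 0.57 and GATB, a subunit of the enzyme that makes mitochondrial glutaminyl-tRNA, at -0.52. Of 76 mitochondrial ribosomal proteins tested 39 rose and 21 fell (median 0.17), led by MRPS25 at -0.72, MRPL49 at 0.67 and MRPS18A at 1.12. With the high dose against DMSO, 52 of these 76 were higher and 5 lower, and 13 of the cytosolic factors were higher and 2 lower, against 30.5% and 28.5% of all genes.

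In LAPC4 cells with R1881 at 22 h, 5 of 28 amino acid response genes rose and 1 fell, against 6.83% and 6.45% of all genes, led by SLC7A1 at 0.69, STC2 at 0.21 and MTHFD2 at 0.16. EIF3B, EIF5B and EIF3C were the cytosolic translation factors that rose there, by 0.13, 0.12 and 0.11, and MTRF1 was the mitochondrial one that fell, at -0.19. Of the mitochondrial ribosomal proteins 4 of 76 rose and none fell, against the same shares, among them MRPL24, MRPL37 and MRPL17 at 0.18, 0.12 and 0.17.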

How the data were processed

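VCaP and LAPC4 cells were profiled by RNA sequencing (TruSeq Stranded mRNA kit, single-end reads of 50 bases). Per the study's methods and the submitters' processing notes, the authors used STAR for alignment to GRCh38 and featureCounts, from Subread, for the counting per gene; bcl2fastq 2.17 and DESeq2 are also named there. The deposited values are raw counts per gene in 1 table of 112 libraries. How the counting treated strand and reads with several alignments, and which annotation it used, is not given in the sources used here. The methods state 5 replicates per condition, and the labels give 4 to 10 libraries per group, all of which were used.

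The members and lists were chosen with earlier results of these data known. A gene entered the fit of a line, made over its 8 groups, where 4 or more of its libraries held 10 or more reads. Fits were made in R 4.3.3 with edgeR 4.0.16 (TMM factors, glmQLFit, glmQLFTest), with Benjamini-Hochberg adjustment. Contrasts between lines came from a fit of all 16 groups. SE was derived from the log2 fold change and its F statistic. Log2 CPM used a prior count of 2. RPKM used the length of the canonical transcript in GENCODE 44 in place of the planned merged exon length. Every member may be named; library values are given for the 3 cytosolic and 3 mitochondrial members with the smallest adjusted p for R1881 at 22 h per line and for those called in opposite directions in the 2 lines, and values of further members were chosen after they were seen. Of each other list the 3 genes with the smallest adjusted p per line are named, with ATF4, DDIT3 and ASNS added. The labels do not say whether libraries came from separate cultures, so p-values and SE measure the spread between these samples. The 95% intervals were the log2 fold change ± 1.96 SE. Alternatives were DESeq2 1.42.0, other low-count filters, fits of only the compared groups, the replicate number as a block, subsets of control replicates, a covariate for the slope of counts on GC content (known for 84.4% of VCaP and 84.0% of LAPC4 genes), omission of each darolutamide library, and, for set means, the median and DESeq2 size factors. The scripts were tested on simulated data for R1881 against DMSO at 22 h, with changed genes drawn from all genes tested. In each line 50 genes were changed at each of the log2 sizes 0.25, 0.5, 1 and 2. Of the 50 changes of 0.25, 38% were recovered in VCaP and 46% in LAPC4 cells. In the VCaP data far more genes were called, 37.4% higher and 40.0% lower, so this share does not carry over to the calls there. False calls made up 5.19% and 9.47% of all calls. A comparison of cytosolic and mitochondrial protein sequences was not run. One marker of the cell lines and one motif are not reported here.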

Additional observations from a re-analysis of the deposited data

Results flagged for a closer look

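Among 224 groups of values of the named members and the 2 sets, 12 held a library far from the others by Dixon's test, where chance gives about 1 in 20 (11.2). In VCaP cells with DMSO at 8 h these were TARS in replicate 10 (85.0 CPM, others 91.5 to 98.1), FARSB in the same library (69.5 CPM, others 77.7 to 84.6) and HARS2 in replicate 6 (31.4 CPM, others 35.3 to 39.1). In VCaP cells with R1881 they were MARS in replicate 4 at 8 h (194 CPM, others 173 to 184), HARS2 in replicate 3 at 22 h (54.0 CPM, others 45.1 to 48.4) and the cytosolic mean in replicate 2 at 22 h (6.53 log2 CPM, others 6.57 to 6.59). FARSB stood apart in DMSO replicate 8 at 22 h (88.0 CPM, others 74.2 to 80.3), NARS2 in high-dose replicate 5 at 22 h (66.4 CPM, others 59.7 to 61.5) and the mitochondrial mean in high-dose replicate 2 at 8 h (4.66 log2 CPM, others 4.72 to 4.74). In LAPC4 cells they were CARS2 in low-dose replicate 1 at 8 h (15.4 CPM, others 12.2 to 12.7) and replicate 2 at 22 h (11.8 CPM, others 14.4 to 15.2), and MARS in R1881 replicate 8 at 22 h (164 CPM, others 146 to 155).

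The R1881 effect differed between 22 and 8 h, by a test of the difference itself, for 13 cytosolic and 9 mitochondrial members in VCaP cells and for 1 cytosolic (YARS) and 1 mitochondrial member (MARS2) in LAPC4 cells, where both calls were lost with only the compared groups, with control replicates 1 to 5 and with no low-count filter. It differed between VCaP and LAPC4 cells at 22 h for 15 cytosolic and 12 mitochondrial members. DARS (-0.30 ± 0.0609) and FARSB (-0.65 ± 0.0595) were called in opposite directions in the 2 lines.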

How the results depend on the processing

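No called value reversed under the alternatives, and DESeq2, filterByExpr and DESeq2 size factors moved no count of called members by over 1.5 times. Counts that moved so far are given with the reported count in brackets, cytosolic then mitochondrial where both moved. The scaling of edgeR and that of DESeq2 both assume that most genes stay or that rises and falls balance. With R1881 in VCaP cells at 22 h, 37.4% of all genes were called higher and 40.0% lower. The alternatives do not test this assumption, which matters most for small changes.

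With the covariate for base composition, LAPC4 cells had 13 cytosolic (8) for time in DMSO, 1 (0) for the high dose against DMSO, 10 and 4 (3 and 1) for the high and 9 and 2 (2 and 1) for the low dose against R1881 at 22 h, 1 cytosolic (0) for the high dose against R1881 at 8 h, 7 cytosolic (1) for the difference of the R1881 effect between times, 13 and 4 (6 and 2) for R1881 at 22 h and 1 (0) cytosolic at 8 h. VCaP cells had 8 and 5 (5 and 3) between doses at 22 h and 7 cytosolic (4) at 8 h. The cause was not tested. With only the compared groups, LAPC4 cells had 5 cytosolic (8) for time and 0 and 0 (1 and 1) for the difference between times.

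With control replicates 1 to 5, LAPC4 cells had 4 mitochondrial (7) for time, 1 cytosolic (2) for the low dose against R1881 at 22 h, 0 and 0 (1 and 1) between times and 2 and 1 (6 and 2) for R1881 at 22 h, and VCaP cells had 2 mitochondrial (4) for the low dose at 8 h. With those from 6 on, LAPC4 cells had 3 mitochondrial (7) for time, 2 (1) for each dose against R1881 at 22 h, 0 (1) for the high dose at 8 h, 0 cytosolic (1) between times and 2 and 1 (6 and 2) for R1881 at 22 h, VCaP cells had 8 and 4 (14 and 7) for time, and 6 mitochondrial members (12) differed between lines. These fits hold fewer libraries. With no low-count filter, LAPC4 cells had 0 mitochondrial (1) for the high dose at 8 h, 1 cytosolic (2) for the low dose at 22 h, 0 and 0 (1 and 1) between times and 2 and 1 (6 and 2) for R1881 at 22 h, and VCaP cells had 1 cytosolic (5) between doses at 22 h and 1 mitochondrial (4) for the low dose at 8 h.

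Same-numbered libraries deviated from their group means with a mean correlation of -0.0051 in VCaP and 0.0549 in LAPC4 cells. For libraries with other numbers it was 0.00067 and -0.0072. Of the same-numbered pairs 33 of 149 and 57 of 161 were over 0.1, and 7 of 55 and 6 of 57 libraries correlated best with their own number. The main fit did not treat the numbers as pairs, and whether they mark a shared batch was not tested. With a replicate block, LAPC4 cells had 3 mitochondrial (7) for time, 6 cytosolic (3) and 0 mitochondrial (1) for the high dose against R1881 at 22 and 8 h, 0 mitochondrial (1) for the low dose at 22 h and 0 and 0 (1 and 1) between times. VCaP cells had 4 mitochondrial (9) for the high dose against DMSO, 2 cytosolic (5) between doses at 22 h and 6 and 0 (10 and 4) for the low dose at 8 h.

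Without 1 darolutamide library each, VCaP counts were 2 to 5 cytosolic and 2 to 5 mitochondrial between doses at 22 h and 2 to 3 mitochondrial (4) for the low dose at 8 h, lowest without high-dose replicate 5 for the cytosolic count between doses and without low-dose replicate 2 for the count at 8 h. LAPC4 counts against R1881 were 1 to 2 and 0 to 1 mitochondrial for the high dose at 22 and 8 h and 1 to 3 cytosolic for the low dose at 22 h.

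As a median over members, the difference from DMSO at 22 h was 0.29 (0.27) for R1881 and 0.48 (0.34) for the high dose in the VCaP cytosolic set, -0.14 (-0.04) and -0.039 (0.15) in the VCaP mitochondrial set and 0.029 (0.08) for R1881 in the LAPC4 cytosolic set. Without SARS2 and VARS2, chosen after the data were seen, the VCaP mitochondrial mean differed by 0.014 (-0.04) with R1881. Members under 2 CPM, as SARS2 was in VCaP cells, are limited by depth.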
